A study of Mus musculus with 18 samples.

Results

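The core thermogenic adipocyte genes described here are Ucp1, Cidea, Dio2, Elovl3, Kcnk3, Ucp2 and Ucp3, classical effectors and markers of brown and beige fat. They were taken by symbol from all 18 expression tables and are 7 of the 24338 symbols found in both the tissue and the culture tables. Polyadenylated RNA of wild-type (WT) mice and of mice carrying an NFIA transgene (NFIA-Tg) was sequenced in 3 libraries per group. A pair of groups was inguinal white adipose tissue (iWAT), the subcutaneous depot in which beige adipocytes arise. The other 4 groups were cultures of stromal-vascular cells from inguinal fat (ingSVF), undifferentiated at day 0 and differentiated at day 7, of each genotype. Both genotypes were differentiated with the same mixture of 0.5 mM isobutylmethylxanthine, 125 nM indomethacin, 1 µM dexamethasone, 850 nM insulin, 1 nM T3 and 1 µM rosiglitazone for 48 h. Insulin, T3 and rosiglitazone were kept on afterwards, so the day 7 cells of both genotypes were under thyroid hormone and a PPARγ agonist. Neither the promoter driving the transgene nor the age, sex and strain of the mice could be taken from the labels. Nothing says that the 3 libraries of a group came from separate animals or cultures, so p-values measure the spread between these libraries, which may be technical.

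Thermogenic fat burns fuel for heat by letting protons flow back across the inner mitochondrial membrane without making ATP. UCP1 is the carrier that does so, its gene is switched on by adrenergic signalling, thyroid hormone and PPAR receptors, and it is the defining gene of brown and beige adipocytes. UCP2 and UCP3 resemble UCP1 in sequence but are made in many tissues (UCP2) or mainly in muscle and brown fat (UCP3), and are not regarded as heat producers of the same kind. CIDEA is a lipid droplet protein, ELOVL3 lengthens very long chain fatty acids, DIO2 turns thyroxine into active T3, and KCNK3 is a potassium channel of brown adipocytes. NFIA is a transcription factor known to favour the brown fat gene programme together with PPARγ.

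The stretches of DNA before the start sites of the 3 uncoupling protein genes are shown because these sister genes differed in their response: Ucp1 and Ucp3 were higher at day 7 with the NFIA-Tg label and Ucp2 was not. RefSeq (GRCm38.p6) gave such a sequence for 4 of the 7 genes (Ucp1, Ucp2, Ucp3 and Dio2). The 250 bases before the start are chr8:83290098-83290347 for Ucp1, chr7:100493108-100493357 for Ucp2 and chr7:100472741-100472990 for Ucp3, all on the plus strand. Capitals mark the nuclear factor I half-site (TTGGC, or GCCAA on the other strand) and the nuclear receptor half-site (AGGTCA, or TGACCT).
Ucp1: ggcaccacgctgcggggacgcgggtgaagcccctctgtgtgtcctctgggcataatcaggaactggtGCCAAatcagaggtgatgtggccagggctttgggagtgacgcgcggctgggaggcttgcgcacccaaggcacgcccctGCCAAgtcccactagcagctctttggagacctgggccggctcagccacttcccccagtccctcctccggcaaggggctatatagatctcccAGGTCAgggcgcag
Ucp2: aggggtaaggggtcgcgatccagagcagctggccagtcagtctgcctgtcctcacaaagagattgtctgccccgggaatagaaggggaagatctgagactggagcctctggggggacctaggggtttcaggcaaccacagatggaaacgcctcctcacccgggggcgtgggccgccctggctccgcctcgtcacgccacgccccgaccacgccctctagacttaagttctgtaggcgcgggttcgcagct
Ucp3: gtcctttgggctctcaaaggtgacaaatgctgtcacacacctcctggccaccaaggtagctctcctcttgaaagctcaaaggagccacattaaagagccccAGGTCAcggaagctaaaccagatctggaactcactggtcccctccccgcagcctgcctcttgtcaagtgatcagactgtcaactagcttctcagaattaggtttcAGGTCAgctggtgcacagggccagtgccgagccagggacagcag
The Ucp1 stretch held 2 nuclear factor I half-sites, beginning 183 and 105 bases before the start site, and 1 nuclear receptor half-site 14 bases before it. The Ucp3 stretch held 2 nuclear receptor half-sites, beginning 149 and 44 bases before the start, and no nuclear factor I half-site. The Ucp2 stretch held neither. The Dio2 stretch, not shown, held 1 nuclear factor I half-site, beginning 119 bases before the start. Among 32851 stretches of the same length, 41.5% held at least 1 nuclear factor I half-site and 14.0% at least 1 nuclear receptor half-site on either strand. The full nuclear factor I palindrome, which contains 2 half-sites, was in none of these 3 and in 12 of all stretches. These are matches of letters, not measured binding sites.

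Levels are given in FPKM, fragments per kilobase of transcript, scaled to library size. Differences between groups were tested by limma on log2(FPKM + 1) across all genes with at least 1 FPKM in at least 3 of the libraries fitted, and are called at an adjusted p under 0.05. On that scale a change of a gene under about 1 FPKM is understated. The culture tables gave back whole reads, with 16772594 to 28625625 reads per library, and read ratios are quoted with exact 95% intervals that cover counting error only. The depth of the iWAT libraries is unknown. Nfia itself measured 3.96 ± 0.228 FPKM in WT iWAT and 141 ± 36.0 FPKM in transgenic iWAT (SD, n = 3 each). In the cultures it was 6.41 ± 0.104 against 11.9 ± 0.584 at day 0, but 12.5 ± 0.518 against 6.99 ± 0.475 at day 7 (SD, n = 3 each), so that it was the lower of the genotypes where the label says NFIA-Tg (limma, -0.76 on the log2 scale, adjusted p = 3.34e-08). The table does not separate transgene from endogenous reads, and the day 7 genotype is therefore given as labelled. At day 7 the sum of 9 adipocyte markers was 25033 to 29397 FPKM in WT and 25669 to 29268 in the libraries labelled NFIA-Tg, most of it Fabp4. Of the 8 of these markers that were tested, 5 were lower with that label and none higher, among them Adipoq, the adiponectin gene (1295 ± 26.8 against 258 ± 17.9 FPKM, SD, n = 3 each). The sum of 8 preadipocyte and fibroblast markers was 1449 to 1627 FPKM in WT and 282 to 384 with the label. Of the 7 of these that were tested, 6 were lower and 1, Pi16, was higher (log2 change 0.40). In bulk samples fewer cells of a type and less RNA per cell cannot be told apart.

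**Figure D1:**
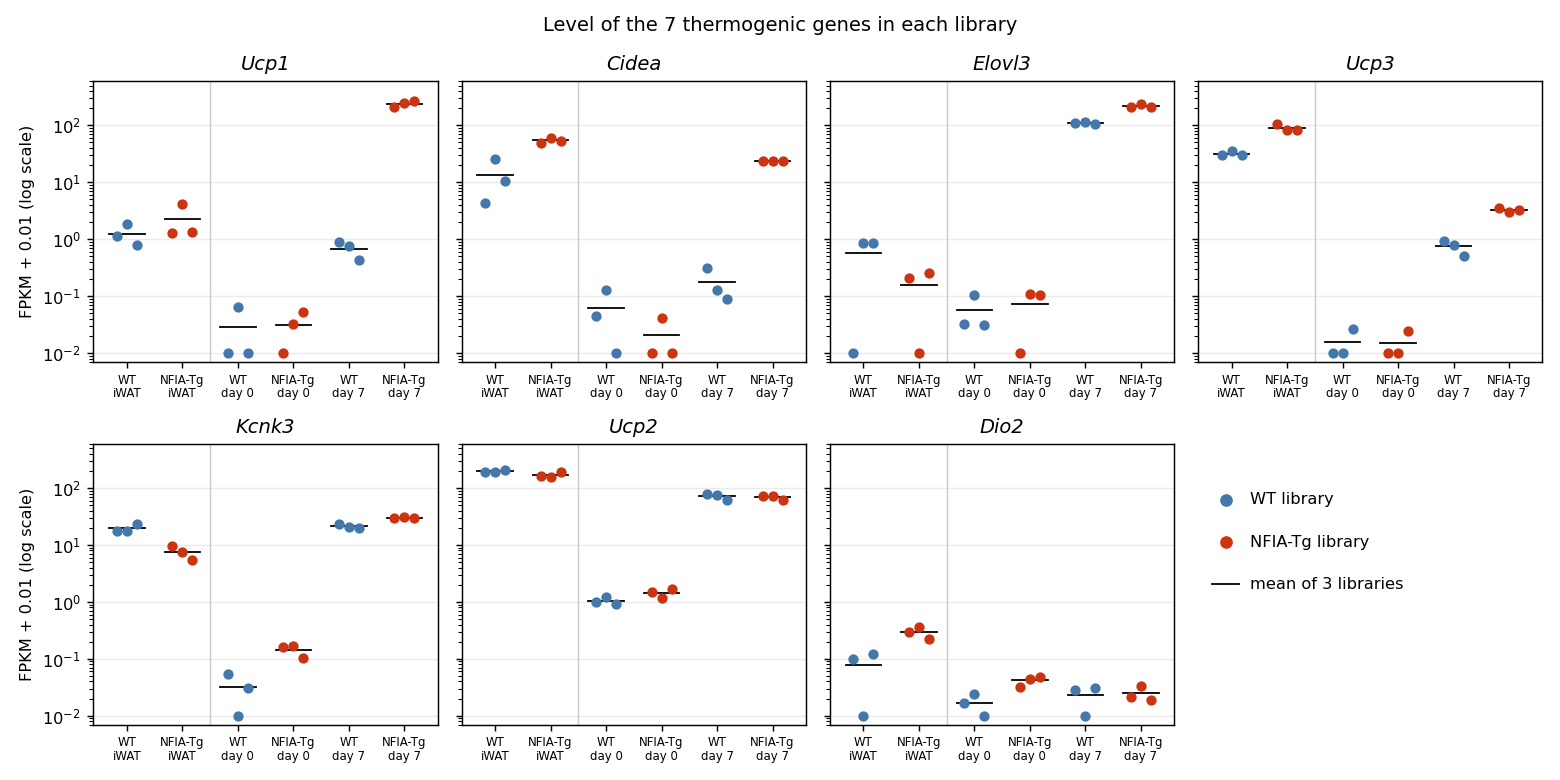
FPKM + 0.01 on a log axis (so a value of 0 is drawn at 0.01) for each of the 7 genes in every library, WT in blue and NFIA-Tg in red, with a line at the mean of 3 libraries. Ucp1 stood above 200 FPKM only in the 3 libraries labelled NFIA-Tg at day 7, Ucp2 overlapped between the genotypes in iWAT and at day 7, and Dio2 stayed under 0.4 FPKM in all 18 libraries.

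Ucp1 was almost silent in every group except the differentiated cultures labelled NFIA-Tg. There it read 208, 248 and 268 FPKM, against 0.872, 0.738 and 0.414 in WT at the same day. The groups lay far apart, with no overlap. In the cultures Ucp1 passed the filter only through the day 7 libraries labelled NFIA-Tg, so it had to differ there and no p is given. The log2 change was 7.18 ± 0.10 (SE), rank 1 in size among the 12553 genes tested. In pooled reads this was 27218 against 77, a ratio of 348 (95% interval 278 to 441). At its mean of 241 FPKM, Ucp1 ranked 270 among 24825 symbols in those cultures. WT differentiation itself raised Ucp1 only from 2 reads at day 0 to 77 reads at day 7 (log2 change 0.71 ± 0.10, adjusted p = 3.25e-05). At day 0 the cultures labelled NFIA-Tg had 3 Ucp1 reads in all, and the genotypes did not differ by the test (adjusted p = 0.974).

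In iWAT the same gene stayed low in both genotypes. WT tissue read 1.11, 1.87 and 0.767 FPKM and NFIA-Tg tissue 1.25, 4.08 and 1.33 FPKM. The groups overlapped, and the log2 change of 0.44 ± 0.33 did not pass the test (adjusted p = 0.418, 95% interval -0.32 to 1.19). The genotype effect on Ucp1 in tissue was -6.74 ± 0.39 relative to that at day 7 on the log2 scale (SE, one limma model over tissue and day 7, adjusted p = 1.04e-07), where 54.3% of all genes were called (35.8% higher, 18.5% lower). The comparison sets tissue of whole mice against cells under T3 and rosiglitazone, and the tissue and culture tables were processed differently.

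Ucp3 was higher in NFIA-Tg than in WT iWAT and higher in the day 7 cultures labelled NFIA-Tg than in WT cultures. WT iWAT read 30.0, 35.0 and 29.6 FPKM and NFIA-Tg iWAT 107, 81.3 and 81.4, with every transgenic library above every WT library. The log2 change was 1.47 ± 0.13 (SE, adjusted p = 0.000884). At day 7 WT cultures read 0.927, 0.782 and 0.501 FPKM and those labelled NFIA-Tg 3.54, 2.96 and 3.31. This was 125 against 557 reads, a ratio of 4.38 (95% interval 3.60 to 5.37), and a log2 change of 1.30 ± 0.09 (SE). In the cultures Ucp3 passed the filter only through the day 7 libraries labelled NFIA-Tg, so it had to differ there and no p is given. The effects in tissue and at day 7 differed by 0.17 on the log2 scale, which did not pass the test (adjusted p = 0.442), and the sign of that difference turned with a smaller pseudocount or with TPM. At day 0 only 1 Ucp3 read was found in each genotype. Ucp3 is also a muscle gene, and 8 skeletal muscle markers were read beside it. Their sum was 163 to 226 FPKM in WT iWAT and 81.4 to 117 in NFIA-Tg iWAT, where Ucp3 was higher. Acta1, skeletal actin, fell from 135 ± 41.3 to 22.1 ± 10.9 FPKM (SD, n = 3 each, log2 change -2.64, adjusted p = 0.00386), Myl1 rose by 0.79 on the log2 scale (adjusted p = 0.0232), and the other 6 markers did not pass the test or the filter. Their part in the Ucp3 result was not tested.

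Ucp2 was abundant in iWAT and at day 7, and no genotype difference passed the test in either. It read 188, 194 and 209 FPKM in WT iWAT and 165, 156 and 194 in NFIA-Tg iWAT, ranges that overlap (log2 change -0.20 ± 0.11, adjusted p = 0.278). At day 7 WT cultures read 78.6, 74.8 and 61.0 FPKM and those labelled NFIA-Tg 72.4, 71.3 and 62.7. The log2 change was -0.05 with a 95% interval of -0.27 to 0.18 (adjusted p = 0.673), and its sign turned with median-of-ratios scaling (0.09). The read ratio was 0.970 (95% interval 0.940 to 1.00). Differentiation raised Ucp2 in both genotypes, from 1.03 to 71.5 FPKM in WT (log2 change 5.16, adjusted p = 1.77e-13) and from 1.42 to 68.8 FPKM with the label (4.85, adjusted p = 1.37e-13).

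The makeup of the uncoupling protein mRNAs therefore differed by setting, as shown by the share of each in the summed FPKM of the 3 genes. Ucp1 made up 0.545% ± 0.246 in WT iWAT, 0.877% ± 0.706 in NFIA-Tg iWAT, 0.907% ± 0.214 in WT cultures at day 7 and 76.8% ± 3.48 in day 7 cultures labelled NFIA-Tg (SD, n = 3 each). In iWAT, Ucp3 made up 13.7% ± 1.38 in WT and 34.1% ± 4.79 in NFIA-Tg tissue (SD, n = 3 each). A share within a library does not depend on how libraries were scaled. It does depend on the gene lengths used, and the listed lengths differed between the tissue and culture tables. Shares set across tissue and culture carry that limit.

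**Figure D2:**
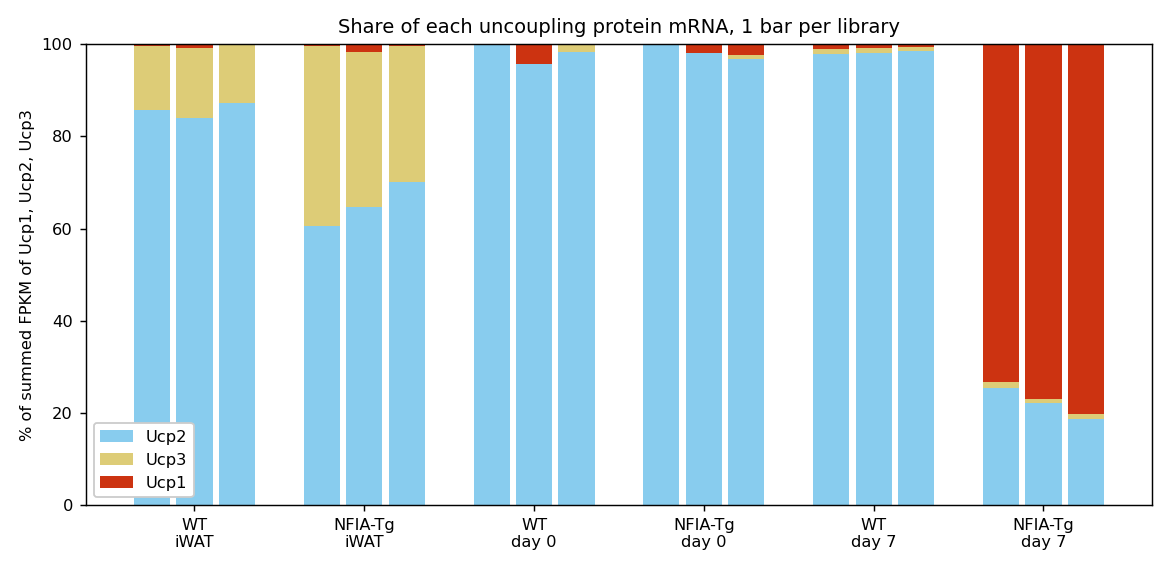
Percent of the summed FPKM of Ucp1, Ucp2 and Ucp3 that each gene made up, 1 stacked bar per library and 3 bars per group. Ucp1 filled 73.3% to 80.2% of the bar in the 3 day 7 libraries labelled NFIA-Tg, and Ucp3 took a larger part of NFIA-Tg than of WT iWAT.

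Cidea was higher in NFIA-Tg than in WT iWAT and higher in the day 7 cultures labelled NFIA-Tg than in WT cultures. WT iWAT read 4.30, 25.7 and 10.6 FPKM, a wide spread, and NFIA-Tg iWAT 49.8, 60.5 and 54.0. The lowest transgenic library lay above the highest WT library (log2 change 2.24 ± 0.48, adjusted p = 0.0232). With WT replicate 3 left out the adjusted p was 0.0692, and with the second or the third transgenic replicate left out it was 0.0723 or 0.0658, so each of these ended the call. It was 0.0741 without the filter on low genes, and with 1 library left out the size ranged from 1.66 (without WT replicate 1) to 2.83 (without WT replicate 2). At day 7 WT cultures had 9, 3 and 2 Cidea reads (0.308, 0.120 and 0.0781 FPKM), and those labelled NFIA-Tg 719, 717 and 466 reads (23.3, 23.3 and 23.9 FPKM). The ratio of pooled reads was 134 (95% interval 79.5 to 245) and the log2 change 4.39 ± 0.07 (SE). In the cultures Cidea passed the filter only through the day 7 libraries labelled NFIA-Tg, so it had to differ there and no p is given. WT differentiation left Cidea near the floor, with 4 reads at day 0 and 14 at day 7 (log2 change 0.15, adjusted p = 0.0750). Its genotype effect in tissue, relative to that at day 7, was -2.16 on the log2 scale (adjusted p = 0.00669). The ratio of Cidea to Ucp1 FPKM was 3.87, 13.8 and 13.8 in the WT iWAT libraries and 39.8, 14.8 and 40.7 in the NFIA-Tg ones. In day 7 cultures it was 0.353, 0.163 and 0.188 in WT, on the few Cidea reads given above, and 0.112, 0.0942 and 0.0891 with the NFIA-Tg label. Ucp1 thus stood above Cidea in every day 7 library of both genotypes, and below it in every iWAT library.

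Elovl3 rose strongly with differentiation in both genotypes, further with the NFIA-Tg label, and was under 1 FPKM in every iWAT library. It went from 6 reads at day 0 to 14045 at day 7 in WT, and from 10 to 28752 with the NFIA-Tg label. WT cultures at day 7 read 110, 113 and 105 FPKM and those labelled NFIA-Tg 210, 236 and 209, with no overlap. This was a ratio of 2.01 (95% interval 1.97 to 2.06) and a log2 change of 0.99 ± 0.06 (adjusted p = 7.38e-09). The WT increase with differentiation was 6.72 ± 0.06 on the log2 scale (SE). Elovl3 passed the filter in the cultures only through day 7 libraries, so a rise had to be found and no p is given. In iWAT it read 0, 0.863 and 0.852 FPKM in WT and 0.197, 0 and 0.247 in NFIA-Tg, under the filter for a test. Its own ratio to Ucp1 at day 7 was 126 to 253 in WT libraries and 0.779 to 1.01 in those labelled NFIA-Tg.

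Kcnk3 had genotype differences that pointed opposite ways in tissue and culture. WT iWAT read 17.9, 17.8 and 23.4 FPKM and NFIA-Tg iWAT 9.48, 7.51 and 5.42, all 3 below every WT library (log2 change -1.31 ± 0.19, adjusted p = 0.00532). At day 7 WT cultures read 23.2, 20.7 and 20.2 FPKM and those labelled NFIA-Tg 29.2, 31.2 and 29.8, all 3 above (log2 change 0.48 ± 0.06, adjusted p = 5.74e-06). The difference between these effects was -1.78 ± 0.22 on the log2 scale (adjusted p = 3.06e-05). Kcnk3 is also made in vessel cells. In iWAT the sum of 6 endothelial markers was 649 to 690 FPKM in WT and 325 to 455 in NFIA-Tg, 4 of the 6 falling by the test. Smooth muscle and pericyte markers summed to 333 to 544 FPKM in WT and 262 to 368 in NFIA-Tg, ranges that overlap. None of these 6 markers was called higher or lower (median log2 change -0.04). The part of these cells in the Kcnk3 result was not tested. At day 7 all 6 endothelial markers together came to under 3.4 FPKM per library. At day 0 there were 4, 0 and 2 Kcnk3 reads in WT and 12, 16 and 10 with the label (log2 change 0.15, adjusted p = 0.0374). That call was lost without WT replicate 2 or 3 or without NFIA-Tg replicate 1 or 2 of day 0 (adjusted p = 0.0757 to 0.102).

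Dio2 was too low to be tested in any group. In iWAT it read 0.0877, 0 and 0.112 FPKM in WT and 0.288, 0.360 and 0.210 in NFIA-Tg, where the ranges did not overlap but lay under the filter. The cultures held 3 and 16 Dio2 reads at day 0 (WT and NFIA-Tg label) and 6 and 7 at day 7, each over 3 libraries. The ratio of reads was 4.94 at day 0 (95% interval 1.42 to 26.5), where the libraries did not overlap, and 1.15 at day 7 (0.330 to 4.13). The Ucp1 of the day 7 cultures labelled NFIA-Tg was thus present beside 7 Dio2 reads, in medium that contained T3.

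**Figure D3:**
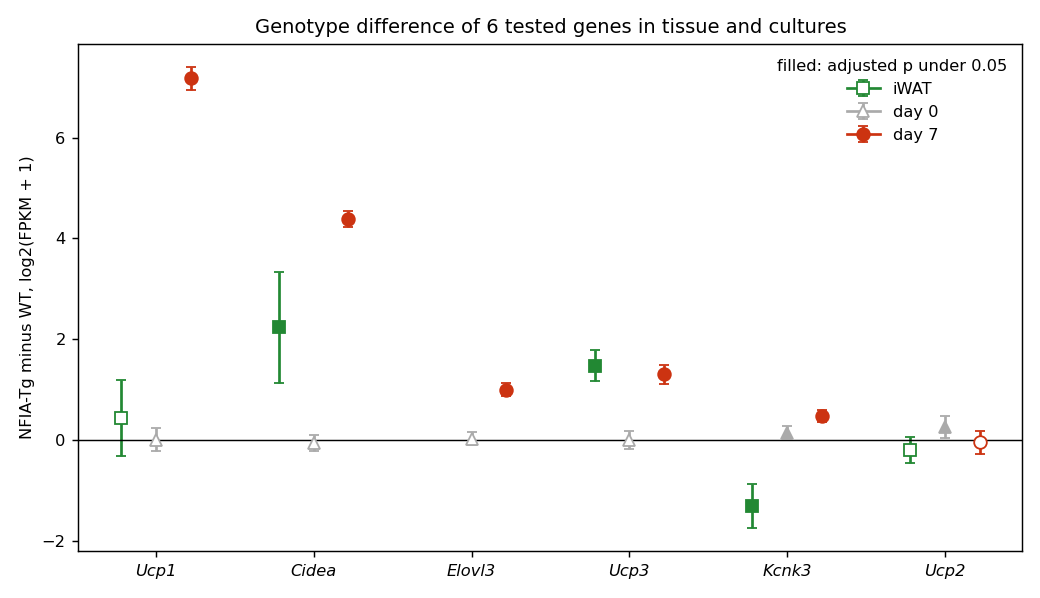
Difference of NFIA-Tg minus WT on the log2(FPKM + 1) scale with 95% confidence intervals from limma, for the 6 genes that passed the filter, in iWAT (squares), at day 0 (triangles) and at day 7 (circles), filled where the adjusted p was under 0.05. Elovl3 has no iWAT point because it was under the filter there, and Kcnk3 lies below 0 in iWAT (-1.31) and above 0 at day 7 (0.48). Ucp1, Cidea and Ucp3 passed the filter in the cultures only through the day 7 libraries labelled NFIA-Tg and had to differ there.

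Of the 7 genes, 5 were tested in iWAT, with 2 higher (Cidea, Ucp3), 1 lower (Kcnk3) and 2 not called (Ucp1, Ucp2), where 11.4% of all genes tested were called, 5.96% higher and 5.44% lower. Those 3 were also the ones whose WT and NFIA-Tg libraries did not overlap, which held for 34.4% of all genes. At day 0, 6 were tested and 2 were higher (Kcnk3 and Ucp2, 1 of them with no overlap), where 63.0% of all genes were called (28.1% higher, 34.9% lower) and 70.2% did not overlap. Ucp2 passed narrowly (log2 change 0.26, adjusted p = 0.0470) and its call was lost without any of 4 day 0 libraries, WT replicates 1 and 3 and NFIA-Tg replicates 1 and 3 (adjusted p = 0.103 to 0.175). It was also lost, with adjusted p from 0.0538 to 0.0561, when WT day 7 replicate 2 or NFIA-Tg day 7 replicate 1 or 2 was left out. At day 7, 5 of the 6 tested were higher and none lower. There 80.9% of all genes were called and 81.2% did not overlap. Of all genes 29.8% were higher and 51.1% lower. Ucp1, Cidea and Ucp3 passed the filter in the cultures only through the 3 day 7 libraries labelled NFIA-Tg and had to differ there.

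With differentiation, 5 of the 6 tested rose in WT (not Cidea) and 6 of 6 with the NFIA-Tg label, where 81.6% and 87.2% of all genes were called. In WT 46.2% of all genes rose and 35.4% fell, and with the label 45.7% rose and 41.5% fell. Day 0 and day 7 libraries did not overlap for 84.4% of all genes in WT and 87.1% with the label. Ucp1, Cidea and Ucp3 were tested here too only through the day 7 libraries labelled NFIA-Tg, so their rise with the label and its difference between genotypes were fixed by the filter and are given as sizes. Elovl3 and Kcnk3 passed the filter only through day 7 libraries, of both genotypes, so their rise was fixed by it too. The difference in rise was called for 5 of 6 genes, where 72.1% of all genes were called (29.5% higher, 42.6% lower): Ucp1 rose by 7.17 more on the log2 scale with the label, Cidea by 4.45, Ucp3 by 1.30, Elovl3 by 0.97 and Kcnk3 by 0.33. The value for Elovl3 was not called when the reads were tested with voom (0.77, adjusted p = 0.443). That for Kcnk3 turned to -2.22 with voom (adjusted p = 0.00950) and to -0.45 with a pseudocount of 0.1 (adjusted p = 0.0620), and was lost with a pseudocount of 0.5 or with TPM. In pooled reads Kcnk3 rose 966-fold in WT (95% interval 444 to 2634) and 231-fold with the label (168 to 327). Ucp2 rose by 0.30 less with the label, which was not called (adjusted p = 0.0794), but was called without WT day 0 replicate 2, NFIA-Tg day 0 replicate 2 or WT day 7 replicate 3 (adjusted p = 0.0463, 0.0291 and 0.0137). The Ucp2 difference was also called with a pseudocount of 0.1 (adjusted p = 0.0440) and with TPM (0.0194). The WT rise of Cidea was called without WT day 0 replicate 2 (adjusted p = 0.0416) or WT day 7 replicate 3 (0.0260). It was also called with a pseudocount of 0.1 (log2 change 0.81, adjusted p = 0.0322) and with voom (1.77, adjusted p = 0.0293). Without any 1 of the NFIA-Tg day 7 libraries, Ucp1, Cidea and Ucp3 dropped under the filter. With the filter set at 2 libraries they stayed called at day 7. They then passed only through the remaining day 7 libraries labelled NFIA-Tg, so that too was fixed by the filter.

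**Figure D4:**
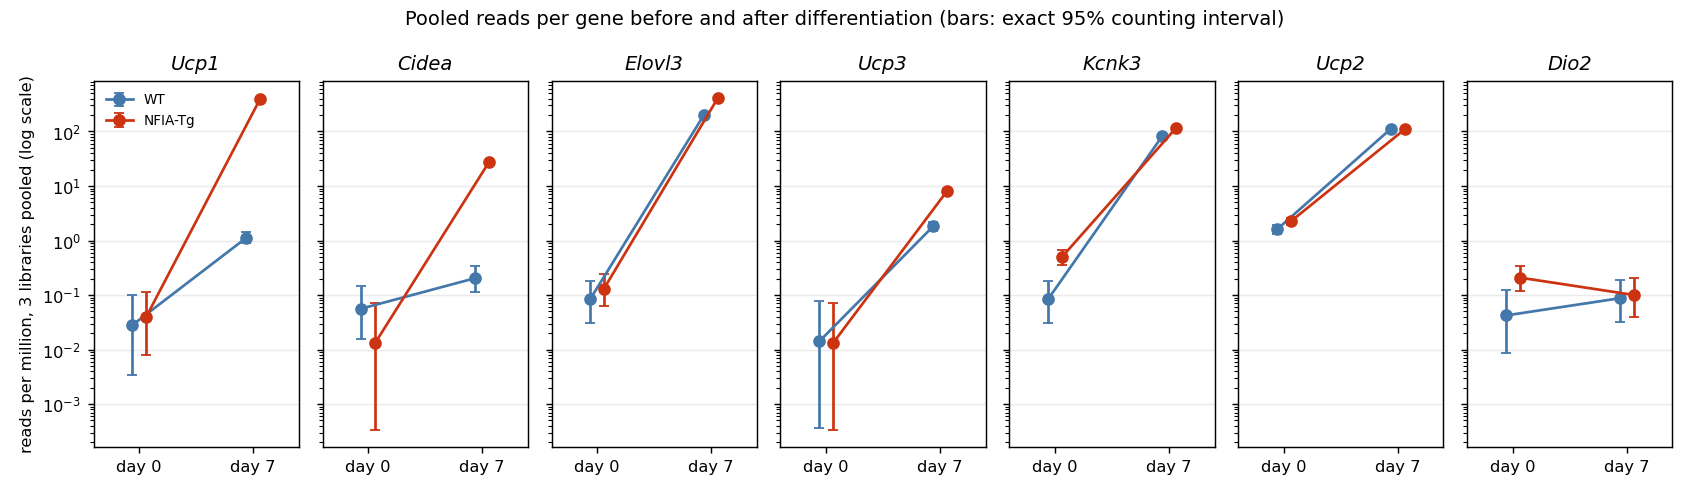
Reads scaled to library size (RPM, log axis), pooled over 3 libraries, of each gene at day 0 and day 7 in WT (blue) and cultures labelled NFIA-Tg (red), with exact 95% counting intervals. Elovl3, Kcnk3 and Ucp2 climb in both genotypes, Kcnk3 from 0.0845 RPM in WT and 0.496 with the label, while Ucp1 and Cidea lie far apart at day 7 and Dio2 stays at or below 0.209 RPM.

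Within a group the order of levels also changed. In WT iWAT the order was Ucp2 (197 FPKM), Ucp3 (31.6), Kcnk3 (19.7), Cidea (13.5), Ucp1 (1.25), Elovl3 (0.572) and Dio2 (0.0665). Kcnk3 and Cidea overlapped there, as did Ucp1 with Elovl3 and Elovl3 with Dio2. In NFIA-Tg iWAT Cidea (54.8 FPKM) stood above Kcnk3 (7.47), with no overlap. In WT cultures at day 7 Elovl3 led (109 FPKM), followed by Ucp2 (71.5) and Kcnk3 (21.3), with Ucp3 (0.737) and Ucp1 (0.675) overlapping far below. With the NFIA-Tg label Ucp1 (241 FPKM) and Elovl3 (218) shared the top with overlapping ranges, ahead of Ucp2 (68.8), Kcnk3 (30.1), Cidea (23.5) and Ucp3 (3.27). At day 0 Ucp2 led in both genotypes at 1.03 and 1.42 FPKM and the other genes were under 0.2 FPKM.

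The lists of related genes are read beside all genes tested, of which 11.4% were called in iWAT (5.96% higher) and 80.9% at day 7 (29.8% higher, 51.1% lower). Of 16 thermogenic regulators, 15 were tested in iWAT, with 5 higher and none lower (median log2 change 0.52, against 0.05 over all genes), and 16 at day 7, with 9 higher and 2 lower (0.83 against -0.17). Ppargc1a, the coactivator of mitochondrial biogenesis, was at 0.614 ± 0.0992 FPKM in WT and 24.4 ± 3.25 with the label at day 7 (SD, n = 3 each, log2 change 3.97). In the cultures Ppargc1a passed the filter only through the day 7 libraries labelled NFIA-Tg, so it had to differ there and no p is given. In iWAT it was at 0.590 ± 0.152 and 2.01 ± 0.867 FPKM (SD, n = 3 each, log2 change 0.88). There it passed the filter only through the NFIA-Tg libraries, so its direction was fixed by the filter and no p is given. Ppargc1a is counted among the 5 and the 9 higher regulators above. Ppara, a fatty acid sensing receptor, rose at day 7 from 2.27 ± 0.229 to 27.3 ± 2.67 FPKM (SD, n = 3 each, log2 change 3.11). Ebf2, a factor of the brown fat lineage, rose in iWAT (log2 change 1.13, adjusted p = 0.00166). Pparg, the master regulator of adipogenesis, was at 70.7 ± 1.56 and 72.5 ± 1.19 FPKM at day 7 (SD, n = 3 each), a log2 change of 0.04 (adjusted p = 0.504). At day 0 it was at 3.69 ± 0.0194 in WT and 15.2 ± 1.23 with the label (SD, n = 3 each, log2 change 1.79, adjusted p = 6.05e-11). Of the 7 genes, Kcnk3 and Ucp2 were called higher at that day, where 63.0% of all genes were called (28.1% higher). Both calls were lost when certain single libraries were left out. Ucp1, Cidea, Elovl3 and Ucp3 had 1 to 10 pooled reads per genotype.

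Of 18 other brown and beige fat markers, 17 were listed and 11 tested in iWAT, with 5 higher and none lower (median 0.90). At day 7, 14 were tested, with 10 higher and 3 lower (median 0.77), beside 29.8% higher and 51.1% lower among all genes. Cox8b, a heart and brown fat subunit of cytochrome c oxidase, was at 44.4 ± 23.7 against 758 ± 162 FPKM in iWAT (log2 change 4.20, adjusted p = 0.000884) and 2.45 ± 1.49 against 178 ± 7.42 at day 7 (5.81, adjusted p = 5.03e-10; SD, n = 3 each). Fabp3, a fatty acid carrier of muscle and brown fat, rose at day 7 by 4.22 on the log2 scale. Of the classical brown lineage markers Zic1, Lhx8, Ebf3 and Meox2, only Ebf3 was high enough to be tested in the cultures (0.35 at day 7), and Zic1 was listed at 0 in all iWAT libraries. Of 8 secreted factors of thermogenic fat, 7 were tested at day 7, with 6 higher and none lower (median 0.92), among them Fgf21, a stress and fasting hormone (31.3 ± 1.93 against 146 ± 6.18 FPKM, SD, n = 3 each), and Vegfa, the vessel growth factor (log2 change 2.21). In iWAT 6 were tested and only Nrg4, an adipose growth factor, was called (log2 change 1.13).

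The 8 other mitochondrial carriers tested gave 4 higher and 3 lower at day 7 (median 0.14), beside 29.8% and 51.1% of all genes, and their median in iWAT was 0.30. Slc25a4, the heart and muscle ATP/ADP carrier, rose by 0.78 on the log2 scale and Slc25a10, the dicarboxylate carrier, fell from 136 to 47.2 FPKM. Of 16 relatives of Cidea, Dio2, Elovl3 and Kcnk3, 10 were tested at day 7, with 5 higher and 3 lower (median 0.19). Cidec, the sister gene of Cidea in white fat (named after its values were seen), was at 1350 ± 45.8 FPKM in WT and 759 ± 57.7 with the label (SD, n = 3 each, log2 change -0.83, adjusted p = 1.58e-06), and its ratio to Cidea was 4454 to 16622 in WT and 29.4 to 35.0 with the label. Dio3, which inactivates thyroid hormone, was the deiodinase present in the cultures: it was at 9.28 ± 1.41 FPKM in WT and 0.958 ± 0.421 with the label at day 7 (SD, n = 3 each, log2 change -2.40, adjusted p = 8.83e-09), and higher with the label at day 0 (1.02). Kcnk5, another potassium channel, rose at day 7 by 1.45. Kcnk2 rose in iWAT by 1.42, where Kcnk3 fell. Of 6 thyroid hormone transporters and targets tested, 3 were higher and 2 lower at day 7 (median 0.28). Hr, a corepressor induced by thyroid hormone, rose by 3.07 and Me1, malic enzyme, fell by 1.13. Of 10 adrenergic and lipolysis genes tested at day 7, 1 was higher and 5 lower (median -0.19), close to the 51.1% lower and the median of -0.17 over all genes, the β3-adrenergic receptor Adrb3 falling from 9.28 ± 0.791 to 0.743 ± 0.0477 FPKM (SD, n = 3 each, log2 change -2.56).

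**Figure D5:**
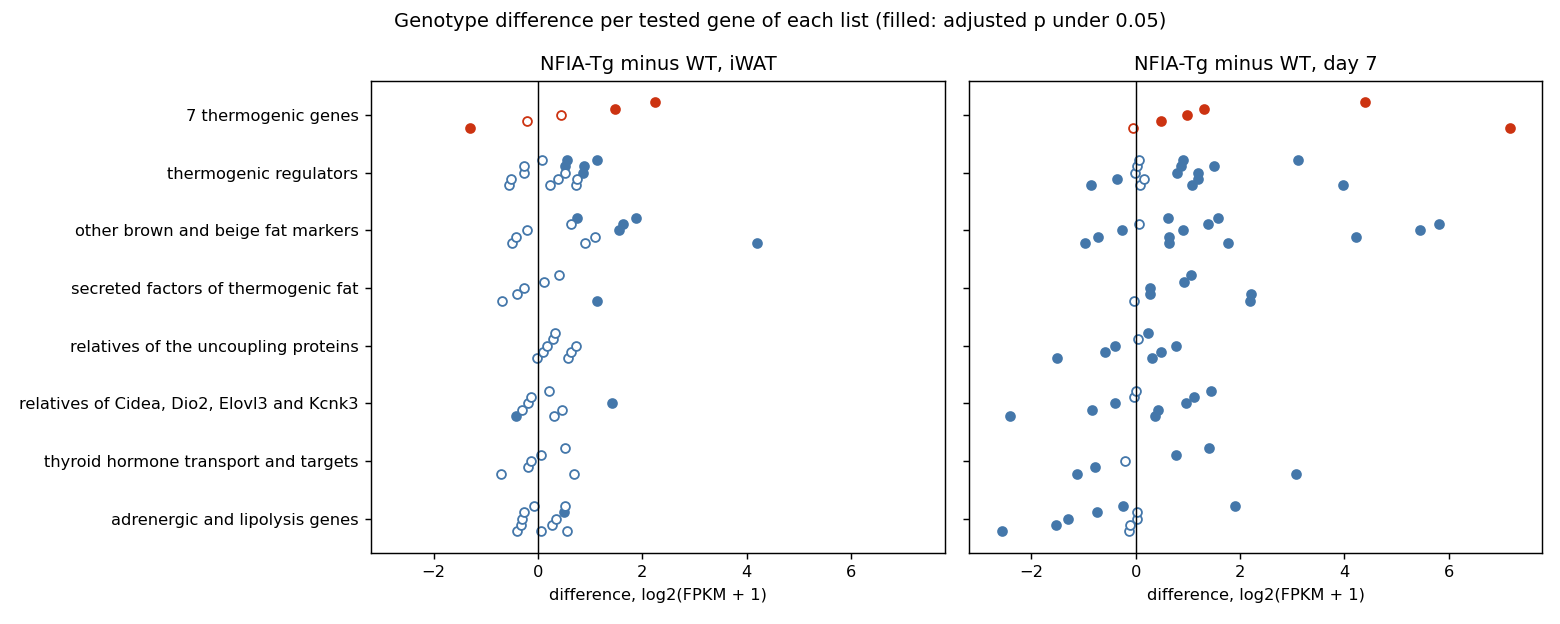
Difference of NFIA-Tg minus WT on the log2(FPKM + 1) scale for each tested gene, in iWAT (left) and at day 7 (right), for the 7 thermogenic genes (red) and 7 lists of related genes (blue), filled where the adjusted p was under 0.05. The regulators and the other brown and beige fat markers that passed in iWAT all lie above 0, and at day 7 the calls of every list except the secreted factors fall on both sides of 0, apart from the 7 genes themselves, with 5 higher.

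Genes with the most similar profile were found by the root-mean-square difference of mean-centred log2(FPKM + 1) over all 18 libraries, among 12889 genes. Those nearest to Ucp1 were Ghrh (1.07), Acox2 (1.07) and Cox7a1 (1.15). All 3 were higher at day 7 with the label, Ghrh for example at 29.1 FPKM against 0.0265. As they were picked for likeness to Ucp1 in these same libraries, that is no separate result. The neighbours of Cidea were Pla2g2e (0.62), Mogat1 (0.64) and Rgs7 (0.74), and those of Ucp3 were Neat1 (0.31), Lgals4 (0.37) and Slco2b1 (0.43). Pla2g2e, a secreted phospholipase, stood at 10.1 FPKM in WT iWAT and 66.2 FPKM in transgenic iWAT. It too was picked for likeness in these same libraries, so that is no separate result either. Ucp2 lay nearest to Aqp7, Plbd1 and Dgat2 (0.29 to 0.34), of which Aqp7 carries glycerol out of fat cells and Dgat2 makes triglyceride. Kcnk3 lay nearest to Plin2 (0.42), a lipid droplet coat protein, then Gpt and Itga6, and Elovl3 to Scd3, Reep6 and Fgf21 (0.99 to 1.24). For Dio2, which stayed near 0, the measure returned genes of flat level, Gpatch1, Vps39 and Cpsf3, so these are no likeness of pattern. The 18 libraries share 6 groups, and the distances are a description.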

How the data were processed

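Polyadenylated RNA was sequenced from 18 samples in 6 groups of 3 (TruSeq Stranded mRNA, per the labels' protocols). The authors deposited FPKM values per gene. STAR (2.7.8a), StringTie (2.1.1) and the mm9 build are listed, without roles, per the submitters' processing notes. In the culture tables, FPKM times length gave whole reads (tolerance 0.01), 16772594 to 28625625 per library. The iWAT tables did not, so their depth is unknown. The listed length in iWAT was longer for 97.3% of 10423 genes. The log2 ratio of WT iWAT to WT day 7 levels hardly followed the log2 length ratio (slope -0.0236). The iWAT FPKM thus do not appear to be divided by the listed length. The lengths and symbols listed differed between the tables, so these were processed differently. A level set across tissue and culture carries that limit. In iWAT, 410 entries shared 180 symbols and were summed.

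limma 3.58.1 (R 4.3.3) was fitted to log2(FPKM + 1) with an intensity trend, in iWAT (4 residual degrees of freedom), in the cultures (8) and in iWAT with day 7 (8). Genes needed 1 FPKM in at least 3 samples, and p-values were adjusted by Benjamini-Hochberg over all genes tested. The procedure was tested on simulated data. Replicate numbers did not pair samples. Alternatives were other pseudocounts, filters, scalings, TPM, no trend, a replicate block, voom on recovered reads and leaving out each library. Members and gene lists were chosen with earlier results of these data known. Named genes were the 7 members, 4 check genes (Nfia, Pparg, Ppargc1a, Adipoq), the 2 called genes of smallest adjusted p in each list and comparison, and the 3 genes of nearest profile to each member. Marker genes and Cidec, Zic1 were named after their values were seen. Promoter sequences are RefSeq's (GRCm38.p6).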

Additional observations from a re-analysis of the deposited data

Results flagged for a closer look

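The rise with differentiation differed between the genotypes, by limma's interaction term, for 5 of the 6 genes tested, where 72.1% of all genes were called. The difference, cultures labelled NFIA-Tg minus WT on the log2 scale, was 7.17 for Ucp1, 4.45 for Cidea and 1.30 for Ucp3. These 3 passed the filter only through the day 7 libraries labelled NFIA-Tg, so the difference was fixed by that choice and no p is given. It was 0.97 for Elovl3 (adjusted p = 4.33e-07), which was not called with voom on reads (adjusted p = 0.443). It was 0.33 for Kcnk3 (adjusted p = 0.00276), which turned to -2.22 with voom (adjusted p = 0.00950).

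The genotype effect also differed between iWAT and day 7 in the limma model over both, where 54.3% of all genes were called (35.8% higher, 18.5% lower). The difference, iWAT minus day 7, was -6.74 for Ucp1 (adjusted p = 1.04e-07), -2.16 for Cidea (0.00669), -1.40 for Elovl3 (0.00106) and -1.78 for Kcnk3 (3.06e-05). Elovl3 entered that model only through its day 7 level, and its call was lost with a pseudocount of 0.1 (-2.05, adjusted p = 0.114). Kcnk3 was called in opposite directions in the 2 settings. Tissue and culture tables were processed differently.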

How the results depend on the processing

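Of 859 values of the thermogenic genes under alternatives, 808 kept direction and side of the threshold, 26 lost the call, 9 gained one and 16 changed sign. In iWAT 1413 genes were called, 934 without a filter and 617 to 1262 with 1 library left out. At day 0, 2 of the 7 genes were called, 1 without a filter, without the trend, with the replicate block or with voom, and 0 to 2 with 1 library left out. The called genes were 2 to 5 at day 7, 3 to 6 for differentiation in WT, 3 to 6 with the NFIA-Tg label and 2 to 6 for the genotype difference in it with 1 library left out. The low ends came from the filter, which Ucp1, Cidea and Ucp3 then failed. With the filter at 2 libraries, chosen after seeing the data, the counts were 1 to 2 at day 0, 5, 5, 6 and 5. Ucp1, Cidea and Ucp3 then passed only through the remaining day 7 libraries labelled NFIA-Tg, so their genotype calls at day 7 were again fixed. The Ucp1 share with 1 library left out was 0.414% to 0.658% and 0.469% to 1.09% in WT and NFIA-Tg iWAT, 0% to 2.18% and 0.959% to 2.20% at day 0, and 0.818% to 1.03% and 75.1% to 78.6% at day 7.

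With 1 library left out, the day 0 genotype values of 3 genes changed sign, within -0.00988 to 0.0307 for Ucp1, -0.00784 to 0.00681 for Ucp3 and -0.0010 to 0.0666 for Elovl3. At day 7, Ucp2 was 0.0887 with median-of-ratios scaling and 0.0155 and 0.0227 without NFIA-Tg replicate 3 or WT replicate 1, in a range of -0.157 to 0.0227 with 1 library left out. The Kcnk3 genotype difference in differentiation was -0.445 with a pseudocount of 0.1 and -2.22 with voom. The Ucp3 difference between tissue and day 7 was -0.544 and -0.134 with pseudocounts of 0.1 and 0.5 and -0.145 with TPM. The cause was not tested. TPM moved the higher and lower calls for differentiation from 5796 and 4450 to 4632 and 5492 in WT, and from 5741 and 5209 to 4646 and 6308 with the label. Median-of-ratios scaling moved those for tissue against day 7 from 4690 and 2430 to 3322 and 3321, with the median of all genes from 0.18 to 0.00496, and that at day 7 from -0.17 to -0.06. TPM moved that median from 0.09 to -0.06 for differentiation in WT and from 0.05 to -0.18 with the label.

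Same-numbered samples correlated at 0.00719 to 0.115 in iWAT and -0.108 to 0.157 in the cultures, so the numbers were not taken as pairs. The replicate block gave 1282 genes in iWAT and ended only the day 0 call of Ucp2 (adjusted p = 0.0512). Pooled reads were 3 to 16 per group for Dio2 in the cultures, and at day 0 they were 1 to 10 for Ucp1, Cidea, Ucp3 and Elovl3 and 6 and 38 for Kcnk3, so counting error is wide there.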
